A study of Mus musculus with 4 samples.

Results

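ZHBTc4 mouse embryonic stem cells treated with doxycycline for 48 h were compared with the ZHBTc4 reference on 2 of the 4 arrays of the study, the pair whose titles mark them as control replicates 1 and 2. The comparison covers 21025 genes: those with a probe well above background on both of these arrays in the treated channel or on all 4 arrays in the reference channel, out of 27670 genes with a probe. ZHBTc4 is an engineered mouse line in which both endogenous copies of Pou5f1 (Oct4) are inactivated and a tetracycline-regulated Oct4 transgene, silenced by doxycycline, keeps the cells undifferentiated. All cells, the reference included, carry that change. The labels state that cells were moved from irradiated embryonic fibroblast feeders to gelatin for 2 passages and that 2 µg doxycycline was then added. RNA of the doxycycline cells carried Cy5 and reference RNA, for which the labels name no treatment, carried Cy3. The other 2 arrays hold doxycycline plus TCP against the same kind of reference and are used here only for the estimate of spread and to place the channels of the doxycycline arrays. The replicates are biological per the labels, the dyes were never swapped, and what the dyes contribute to a ratio cannot be told apart from the treatment.

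Oct4 binds DNA at an eight-base octamer motif, often beside Sox2, and together with Nanog, Esrrb, Klf4 and other transcription factors it keeps embryonic stem cells able to form every embryonic lineage. It also holds back genes of the trophectoderm, the outer layer of the blastocyst that gives rise to the placenta, and mouse stem cells that lose Oct4 are known to take on trophoblast features. Trophoblast is a polarised epithelium with simple keratins, tight junctions and an apical membrane, and it takes up glucose and lipids for the embryo.

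Replicate 2 arrays differed from replicate 1 arrays in the reference as well as in the treated channel, but across genes they were not a close pair themselves. Across genes, normalized Cy3 levels of the doxycycline replicates correlated at Pearson r = 0.989, against 0.999 for doxycycline replicate 1 and the TCP array of the same slide. The 2 replicate 2 arrays correlated with each other at 0.989 in Cy3 and 0.982 in Cy5, and the 2 TCP arrays at 0.981 and 0.980. Krt8, a keratin of simple epithelia, had Cy3 levels (normalized log2 intensity) of 13.21 and 13.52 on the replicate 1 arrays with doxycycline and with doxycycline plus TCP, and of 16.35 and 16.44 on the replicate 2 arrays. The reference signal was therefore not alike on the 2 doxycycline arrays for such genes, and what made it differ was not tested. In Cy5 the doxycycline replicates correlated at 0.967, and 2174 genes (10.4%) differed by more than 2-fold, against 414 (1.97%) in Cy3. The share of probes well above background was alike, at 76.4% and 76.7% in Cy5 and 75.0% and 78.1% in Cy3, and no spot was saturated. In 5655 genes with probes at least 500 bases apart, the log2 ratio of the probe nearer the 5′ end exceeded that of the probe nearer the 3′ end by a median of 0.14 on replicate 2 and by 0.01 on replicate 1, and by over 1 in 699 and 237 genes. Its part in the results was not tested, and results that differ between the arrays are given for each.

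After doxycycline more genes fell than rose, and the falls were larger. With limma, 3142 genes (14.9%) passed an adjusted p of 0.05, the threshold for "called" here; 1364 (6.49%) rose and 1778 (8.46%) fell. Of these, 571 (2.72%) rose and 935 (4.45%) fell by at least 2-fold, 48 rose and 273 fell by at least 4-fold, and 1 rose and 67 fell by at least 8-fold. The median log2 ratio of Cy5 over Cy3 over all genes was -0.0024 and the median standard error 0.12. Cy5 levels of both arrays lay wholly above or below both Cy3 levels for 9564 genes (45.5%). The 6.49% higher and 8.46% lower of all genes are the shares beside which the counts for gene lists below stand.

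Those calls rest on the spread of all 4 arrays. A fit without 1 doxycycline replicate rests on 1 doxycycline array and takes its spread from the TCP arrays. Its counts, here and for the lists below, leave out the spread between doxycycline replicates and do not measure their agreement. With the doxycycline arrays alone, or without either TCP array, no gene passed limma's adjusted threshold and 5095 had an unadjusted p under 0.05, so every count of calls given here is 0 in those fits. Without doxycycline replicate 1, 1373 genes were called higher and 2750 lower, and without replicate 2, 886 and 1178. Centring each array on its median in place of loess raised the log2 ratios by a median of 0.38 per gene and put the median over all genes at 0.19, and 81.1% of calls were then higher ratios in place of 43.4%. It called 4886 of 21025 genes higher and 1136 lower, and the list counts given below for median centring stand beside these.

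The log2 ratios of the replicates correlated at Pearson r = 0.663 and Spearman rho = 0.584 across 20985 genes measured on both, which are not independent of each other, and had the same sign in 70.2%. Falls of at least 2-fold numbered 1309 on replicate 1 and 2129 on replicate 2, with 805 on both, which is 61.5% of the first set and 37.8% of the second. Rises of at least 2-fold numbered 976 and 855, with 449 on both, 46.0% and 52.5%. The 3139 called genes measured on both arrays all had the same sign on both, which the test favours. For 199 probes printed in 10 spots, the log2 ratio varied between spots by a median SD of 0.06 on replicate 1 and 0.07 on replicate 2, while the replicates differed by a median of 0.19.

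**Figure D1:**
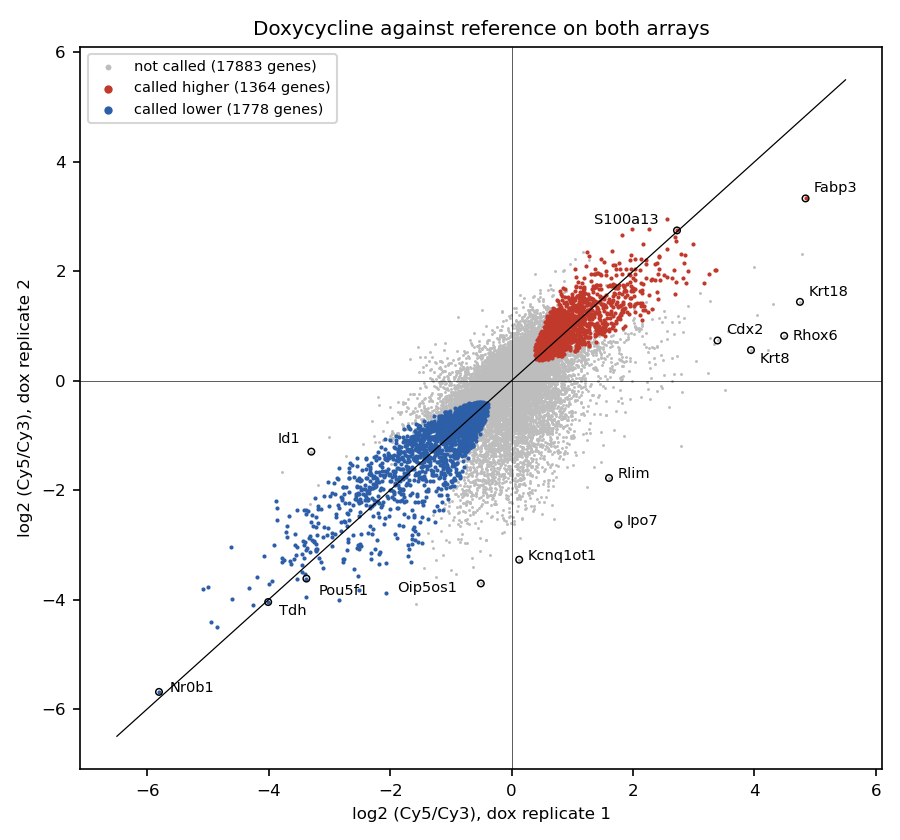
Log2 ratio of Cy5 (doxycycline) over Cy3 (reference) on replicate 1 (x axis) and replicate 2 (y axis), 1 point per gene, with genes called higher in red, called lower in blue and others in grey. Nr0b1 at -5.81 and -5.69 lies on the diagonal, while Krt8, Krt18, Rhox6 and Rlim lie far to its right, with ratios over 3 log2 units higher on replicate 1 than on replicate 2.

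Pou5f1 itself was lower in the treated cells on both arrays. Its Cy5 level was 8.95 on replicate 1 and 10.02 on replicate 2, below its Cy3 levels of 12.33 and 13.64, with no overlap between the channels. The log2 ratios were -3.38 and -3.62, a mean of -3.50 ± 0.10 (limma's SE, n = 2), or 11.3-fold lower (adjusted p = 0.0107). Both channels were about 1 unit brighter on replicate 2, and the ratio was nearly alike.

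Nr0b1, which encodes an orphan nuclear receptor of the stem cell network, had the largest fall of any named gene. Its Cy5 levels were 7.19 and 7.44 against Cy3 levels of 13 and 13.13. The mean log2 ratio was -5.75 ± 0.11, a 53.7-fold fall (limma's adjusted p = 0.0107). The treated levels sat close together and far below the reference on both arrays.

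Fabp3, the heart-type fatty acid binding protein, had the largest called rise. It was already bright in the reference, at 12.45 and 14.29, and reached 17.29 and 17.63 in the treated cells. The log2 ratios of 4.84 and 3.33 averaged 4.09 ± 0.52, or 17.0-fold (limma's adjusted p = 0.0263). The treated levels were within 0.34 of each other, and the gap between the ratios lay mostly in the reference, which was 1.85 brighter on replicate 2.

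**Figure D2:**
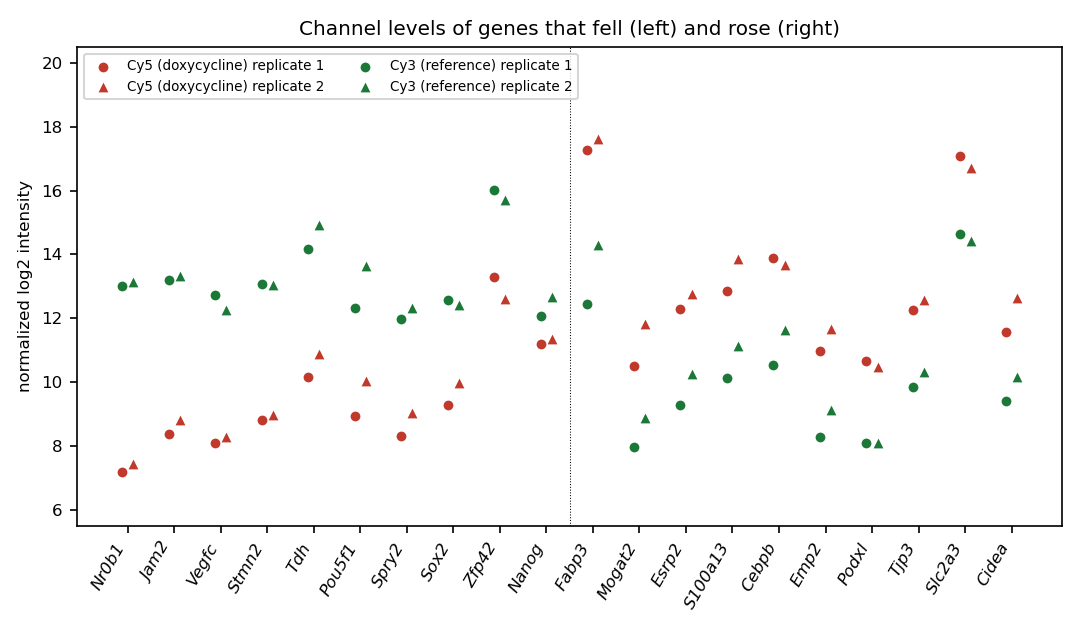
Normalized log2 intensity of Cy5 (doxycycline, red) and Cy3 (reference, green) on replicate 1 (circles) and replicate 2 (triangles) for 10 genes that fell and 10 that rose. For Nr0b1 the treated levels of 7.19 and 7.44 lie far below the reference at 13 and 13.13, and for Fabp3 the treated levels of 17.29 and 17.63 lie above a reference that differs between the arrays.

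The other large falls included further stem cell regulators, enzymes, adhesion molecules and neuronal genes. Jam2, a junctional adhesion molecule, had log2 ratios of -4.84 and -4.50, a 25.5-fold fall. Msln (mesothelin, a surface glycoprotein) had -5.09 and -3.82, and Vegfc, a growth factor of lymphatic vessels, -4.61 and -3.99. The ratios of these genes had the same sign and like size on the 2 arrays, with Msln the least even.

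Tdh, the threonine dehydrogenase on which mouse embryonic stem cells depend for growth, had log2 ratios of -4.01 and -4.05. Its reference levels were 14.18 and 14.93 and its treated levels 10.17 and 10.88, well apart on each array. Slc7a3, a carrier of cationic amino acids, had -3.54 and -3.62 from a reference of 15.11 and 14.69. Rasgrp2 and Rapgef3, both exchange factors for the small GTPase Rap1, fell, with mean log2 ratios of -3.51 and -3.48, as did Platr10, a long non-coding RNA named for its tie to pluripotency, at -3.81. Stmn2 (a microtubule regulator of neurons), Calca (calcitonin and its related peptide), Chrna9 (an acetylcholine receptor subunit) and Skor1 also fell, with mean log2 ratios of -4.18, -4.06, -3.90 and -3.84. Skor1 was uneven between the arrays, at -4.62 and -3.05.

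Transcription factors of naive pluripotency moved almost as a block. Of 21 tested, 16 were called lower and 1 higher, with a median log2 ratio of -1.78 (-1.79 on replicate 1 and -1.78 on replicate 2), beside 8.46% and 6.49% of all genes; without doxycycline replicate 1 or replicate 2 the falls numbered 16 and 13, and with median centring 4 were called higher and 13 lower. Esrrb had log2 ratios of -2.61 and -2.82, Zfp42 (Rex1) of -2.71 and -3.09, Nr5a2 of -2.33 and -2.33, and Klf4 of -2.19 and -2.24. A second tested Esrrb probe, dimmer in the reference at 7.79 and 7.69, had -0.419 and -0.195, so the Esrrb probes disagree on the size. Sox2, the DNA-binding partner of Oct4, had -3.28 and -2.45.

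Nanog fell less, with log2 ratios of -0.89 and -1.31 and a mean of -1.10 ± 0.18 (limma's adjusted p = 0.0381). Its treated levels of 11.19 and 11.35 stayed well within the detected range. Sall4 was lower by a mean of 0.61 on the log2 scale, and Sall1, another spalt-family factor, was the 1 member called higher, at 0.48 and 0.47. Klf2, Tbx3 and Tfcp2l1 had mean log2 ratios of 0.01, -0.09 and 0.22 and were not called, and Zfp281 had -0.77 and -2.40, an uneven pair.

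The octamer, spelled ATGCAAAT and searched on both strands in the 250 bases before the start of transcription in RefSeq promoters (GRCm38.p6), was found in 7 of 168 genes that fell by at least 4-fold (4.17%), in 12 of 612 that fell by at least 2-fold (1.96%), in 2 of 431 that rose by at least 2-fold (0.464%) and in 197 of all 13250 tested genes with a promoter (1.49%). The 7 windows are shown because they hold the letters that Oct4 is known to read in genes that fell most. Capitals mark the match on either strand, with 25 bases to each side, written along the gene's own strand.
Zfp296: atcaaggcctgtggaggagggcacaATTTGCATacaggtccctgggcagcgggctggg
Sned1: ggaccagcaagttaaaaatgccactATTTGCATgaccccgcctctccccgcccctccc
Zfp42: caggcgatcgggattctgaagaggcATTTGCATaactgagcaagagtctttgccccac
Pipox: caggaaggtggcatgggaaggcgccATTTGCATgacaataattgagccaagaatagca
Zfp428: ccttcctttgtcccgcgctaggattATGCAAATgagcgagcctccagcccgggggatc
Liph: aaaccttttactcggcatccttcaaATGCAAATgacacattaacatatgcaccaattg
Pim2: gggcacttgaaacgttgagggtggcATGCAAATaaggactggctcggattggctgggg
The window of Zfp42 lies at chr8:43307163-43307220 on the minus strand and that of Zfp296 at chr7:19577151-19577208 on the plus strand. The mean log2 ratios ran from -3.64 for Zfp296 through -2.90 for Zfp42 and -2.78 for Zfp428 to -2.09 for Pim2. A match describes these letters and was not tested as a binding site.

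Genes that report on the stem cell state followed the same direction. Of 18 RNA-binding, chromatin and reporter genes, 13 fell and 1 rose, with a median log2 ratio of -1.60. Gdf3, a ligand of the transforming growth factor family, had -2.49 and -2.40, Fbxo15, an Oct4 and Sox2 target long used as a reporter, -1.75 and -2.21, and Utf1 -2.15 and -1.21. Dppa5a went from Cy3 levels of 18.21 and 18.14 to Cy5 levels of 16.78 and 17.10. Lin28a, which blocks let-7 maturation, fell by 0.92 on the log2 scale on each array. Dppa3 had 0.06 and -0.25, and Rif1 (-0.91 and -3.53) and Mtf2 (-0.73 and -2.96) were uneven between the arrays and not called.

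Among 14 genes that write, read or erase DNA methylation, 5 fell and 2 rose, with a median of -0.31 that became 0.20 with median centring, where 2 fell and 5 rose; scanner log ratios gave 2 each way, and without doxycycline replicate 2, 3 fell. Dnmt3l, a cofactor of the de novo methyltransferases, fell from reference levels of 16.79 and 16.36, with log2 ratios of -2.50 and -1.83. The ten-eleven translocation dioxygenases, which oxidise methylcytosine, split: Tet1 and Tet2 fell by 0.87 and 1.20 on the log2 scale, and Tet3 rose by 1.18. Dnmt1 and Dnmt3b had mean log2 ratios of 0.24 and 0.50 and were not called.

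Ligands, coreceptors and feedback inhibitors of the Nodal and fibroblast growth factor pathways fell together. Of 22 genes 12 fell and 2 rose, with a median log2 ratio of -1.67; with median centring 12 fell and 7 rose, and without doxycycline replicates 1 and 2 the rises numbered 1 and 0. Nodal had log2 ratios of -2.67 and -2.56, its coreceptor Tdgf1 (Cripto) -3.58 and -3.26, and Lefty1, a Nodal antagonist that Nodal itself induces, -3.71 and -2.76. In the growth factor branch, Spry2 had -3.64 and -3.29, Spry4 -3.66 and -2.48, Dusp6, a phosphatase of ERK, -2.53 and -3.58, and Etv4, an ETS factor induced by ERK, -3.39 and -2.44. Acvr1b, a Nodal receptor, and Smad3, a transducer of the pathway, were the genes that rose, by 0.87 and 1.22. Fgfr2, the receptor through which fibroblast growth factor 4 maintains trophoblast stem cells, had 1.77 and 0.61 and was not called.

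Of 20 genes of the LIF, JAK-STAT and BMP-Id responses, 6 fell and none rose (adjusted p under limma's threshold), while 14 were not called; the median was -0.40, and 0.18 with median centring, where 3 fell and 5 rose. Socs2, a feedback inhibitor of cytokine receptors, had -2.96 and -3.02. The receptor chains Lifr and Il6st fell by 0.95 and 0.66 on the log2 scale and the ligand Bmp4 by 1.29. Id1, a BMP target that restrains neural differentiation, had log2 ratios of -3.30 and -1.30 and was not called (limma's adjusted p = 0.0894); its reference level was 15.27 on replicate 1 and 14.17 on replicate 2.

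Neural markers fell or were not called. Of 21 tested, 10 fell and none rose, with a median of -0.62. The neurofilament genes Nefh, Nefl and Nefm had mean log2 ratios of -2.85, -2.64 and -1.65, Otx2 and Pou3f1, both also expressed in early epiblast, -1.95 and -2.09. Pax6, a factor of neural progenitors, had -2.17 and -1.54 on the probe used, whose treated signal was well above background on 1 of 2 arrays; its other tested probe had -0.33 and -0.15, so the probes disagree on the size. Sox1 and Neurog2, which mark committed neural cells, lay between -0.20 and 0.08 on each array and were not called.

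Of 26 Wnt pathway genes 6 fell and 4 rose; without doxycycline replicate 2 the rises numbered 1 and without replicate 1 they numbered 2, and with median centring 9. The falls included Lef1 (-3.54 and -2.36), a transcription factor of the pathway, the secreted inhibitor Sfrp1 (-2.35 and -1.99), the receptor Fzd10 (-2.20 and -2.10) and the ligand Wnt3a (-1.84 and -1.28). The coreceptor Lrp5 rose by 1.32 on the log2 scale and the feedback gene Nkd1 by 0.96. Dkk1, an inhibitor, had 3.99 and 2.08, high on both arrays, and was not called (adjusted p = 0.0679). Axin2, a common readout of the pathway, had -0.52 and -0.18.

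The largest called rises after Fabp3 were 4.76-fold to 6.76-fold for the 24 genes next in order and held epithelial, lipid and glucose transport genes. Mogat2, which makes diacylglycerol from monoacylglycerol, had log2 ratios of 2.55 and 2.96, and Cidea, a lipid droplet protein, 2.16 and 2.50. Esrp2, a splicing regulator of epithelial cells, had 3.00 and 2.50, and its paralogue Esrp1 1.27 and 1.21. S100a13 (2.72 and 2.75), Rgma (a BMP coreceptor, 2.69 and 2.63) and Emp2 (an epithelial membrane protein, 2.70 and 2.56) were nearly equal on the 2 arrays. Cebpb, a leucine zipper factor of trophoblast and of stress responses, had 3.37 and 2.03, and Igf2, a placental growth factor, 3.16 and 1.79.

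Apical membrane and tight junction genes had the most called rises of the epithelial lists. Of 25 tested 14 rose and 2 fell, with a median of 0.86 (1.08 on replicate 1 and 0.73 on replicate 2). Podxl, an apical sialomucin, had Cy5 levels of 10.66 and 10.48 against Cy3 levels of 8.09 and 8.08, and Tjp3, a junction scaffold, 12.27 and 12.56 against 9.85 and 10.30. In both the channels were well apart on each array, and the mean log2 ratios were 2.48 ± 0.12 and 2.34 ± 0.09 (limma's adjusted p = 0.0134 and 0.0113). The claudins Cldn3 and Cldn6 rose by 2.25 and 1.31, and the polarity genes Pard6b, Crb3 and Patj by 1.93, 1.76 and 1.49. Prkcz, the atypical protein kinase C that works with Pard6b, was outside this list and rose by 2.35. The falls were Slc9a3r1, a scaffold of microvilli, at -0.90 on each array, and Rab25. Cdh1 (0.25 and 0.44), the epithelial cadherin that stem cells already express, was not called.

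Trophoblast transcription factors and keratins had high ratios on replicate 1 and low ones on replicate 2. Of 25 trophoblast transcription factors 3 rose (Cebpb, Msx2 and Ovol2) and none fell, and the median log2 ratio was 1.76 on replicate 1 and 0.47 on replicate 2; without doxycycline replicate 2, 8 were called higher and without replicate 1, 4, and the count was 16 with median centring and 7 with scanner log ratios. Cdx2, which specifies trophectoderm, had log2 ratios of 3.39 and 0.73, and Tfap2c 3.26 and 0.78. Esx1, a placental homeobox gene, had 4.79 and 2.32, and Gata2 3.10 and 1.60. None of these 4 passed limma's threshold, with adjusted p of 0.249, 0.166, 0.0864 and 0.0585.

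The treated levels of these genes were less uneven than their reference levels. Krt18 had Cy5 levels of 17.83 and 17.56, but Cy3 levels of 13.08 and 16.12; its log2 ratios were 4.75 and 1.44 (mean 3.10 ± 1.13, limma's adjusted p = 0.159). Rhox6, a homeobox gene of placenta and germ line on the X chromosome, had 16.54 and 15.91 in Cy5 and 12.05 and 15.09 in Cy3. Sct, the hormone secretin, had 14.59 and 15.52 in Cy5 and 11.36 and 15.38 in Cy3. In each the treated levels were high on both arrays, and the reference was brighter on replicate 2 by 3 units or more. The log2 ratios were 4.49 and 0.82 for Rhox6 and 3.23 and 0.13 for Sct. On replicate 2 Sct was thus nearly level with its reference.

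The TCP arrays gave the same split of the reference. Krt18 had Cy3 levels of 13.47 and 16.36 on TCP replicates 1 and 2, Rhox6 12.18 and 15.12, Sct 11.30 and 15.15, Dppa1 7.25 and 10.19, and Cdx2 9.06 and 10.37. Replicate numbers, not treatments, separated the reference levels of these genes. Over the trophoblast transcription factors 23 of 25 were brighter in Cy3 on doxycycline replicate 2 than on replicate 1, with a median difference of 0.58, against 61.0% and 0.08 for all genes. What the reference cells of the replicate 2 arrays were doing was not tested.

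**Figure D3:**
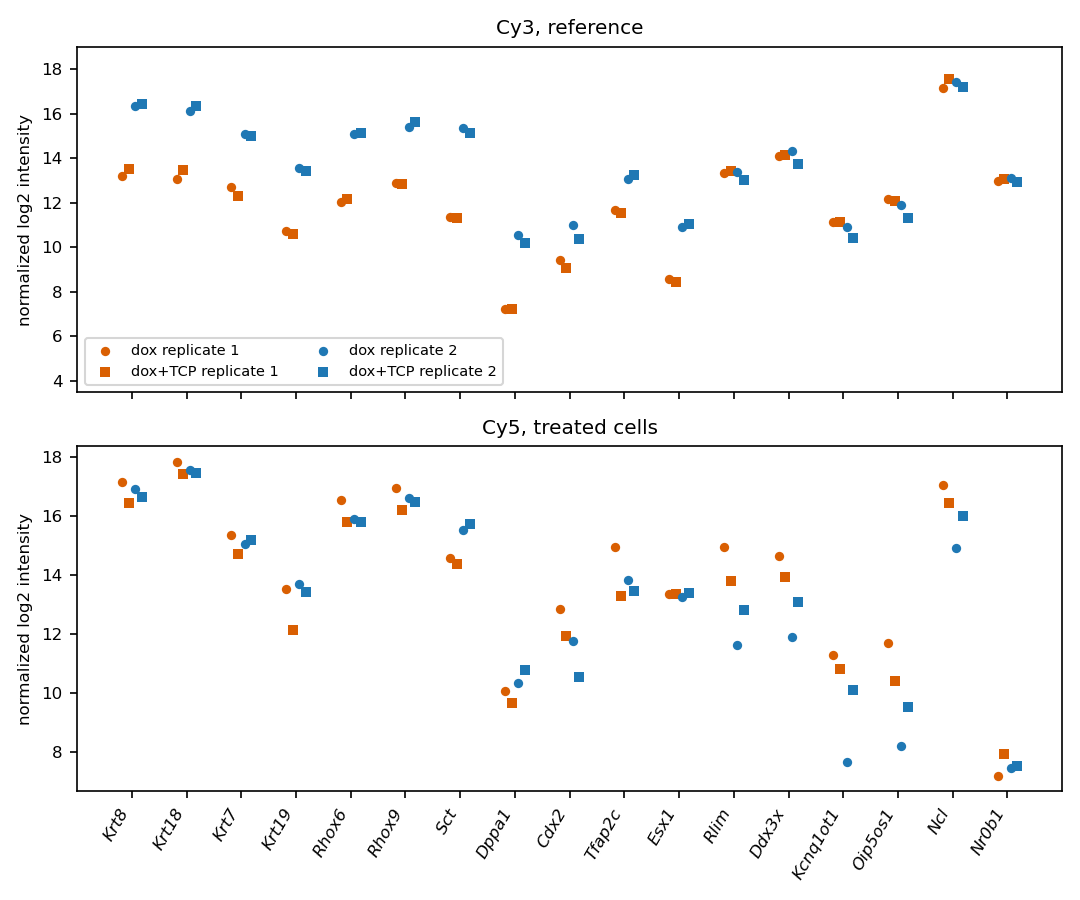
Normalized log2 intensity in Cy3 (reference, upper panel) and Cy5 (treated, lower panel) on the doxycycline (circles) and doxycycline plus TCP (squares) arrays of replicate 1 (orange) and replicate 2 (blue). Keratin, Rhox and secretin genes have brighter reference levels on both replicate 2 arrays (Krt8 at 16.35 and 16.44 against 13.21 and 13.52), and Kcnq1ot1 and Rlim are lowest in Cy5 on doxycycline replicate 2.

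Keratin and desmosome genes had the same unevenness. The list of 13 had a median of 1.63 on replicate 1 and 0.15 on replicate 2, with 2 rises (Dsp, desmoplakin, and Ppl, periplakin) and 1 fall (Evpl, envoplakin); without doxycycline replicate 2, 4 rose, and with median centring 6 rose and none fell. Krt7 and Krt19 had 2.65 and 2.79 on replicate 1 and -0.01 and 0.12 on replicate 2. Trophoblast hormone, protease and surface genes, 15 tested, had 2 rises, Tinagl1 (2.11 and 1.41) and the ligand Bmp8b (1.56 and 1.35). That is 13.3% called, against 14.9% of all genes. Their median was 0.97 on replicate 1 and 0.05 on replicate 2, and with median centring 5 rose. The placental lactogen gene Prl3d1 (0.11 and -0.03) and Prl3b1 (-0.19 and -0.01), which mark giant cells and later placenta, were near 0 on each array. Elf5 had 2.23 and -0.03, while Eomes (-0.39 and 0.04) and Hand1 (0.22 and -0.28) were not called.

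Imprinted and placental growth genes moved both ways, with 4 rises and 5 falls among 18; with median centring 10 rose and 3 fell, and without doxycycline replicate 2, 7 rose. H19 and Igf2, neighbours that are expressed from opposite parental copies, rose by 1.66 and 2.48 on the log2 scale. Igf2r, which clears Igf2, rose by 1.26 and Gnas by 1.34. Meg3 (-2.55 and -1.94) and Mest (-2.35 and -1.94) fell most, followed by Grb10, Peg12 and Snrpn at means between -0.85 and -1.01. Phlda2, which limits placental growth, had 2.91 and 1.37 and was not called.

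Genes of cholesterol synthesis and uptake rose together. Of 26 tested 13 rose and none fell, with a median of 0.65 (0.79 on replicate 1 and 0.64 on replicate 2). Dhcr7, which makes the last step to cholesterol, 1.46 and 1.75, Cyp51 1.08 and 1.55, and Fdps 1.12 and 1.31. Insig1, a sterol-regulated brake on the pathway, had 1.35 and 1.02, and the lysosomal exporters Npc1 and Npc2 had means of 1.03 and 0.77. Idi1, an isomerase of the pathway, had 0.70 and -1.64 and was not called.

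A CCAAT box, the site of the factor NF-Y and a common element of sterol-gene promoters, was chosen for this search after the values were seen. It was present, as CCAAT on either strand, in the 250 bases before the start of 16 of the 17 cholesterol genes that have a promoter in the table (94.1%), against 35.9% of the 13250 tested genes with one. The sterol response element in the form TCACNCCAC was found in 1 of these 17, in Hmgcs1, against 0.989% of tested genes. Windows round 1 CCAAT box each are shown for 3 of the genes that rose, with the match in capitals.
Cyp51: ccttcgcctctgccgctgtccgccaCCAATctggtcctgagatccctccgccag
Mvd: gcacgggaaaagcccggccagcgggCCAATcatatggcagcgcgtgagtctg
Insig1: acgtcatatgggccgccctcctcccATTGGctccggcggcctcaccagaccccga
The first is at chr5:4104698-4104751 (minus strand), the second at chr8:122443423-122443474 (minus strand) and the third at chr5:28071171-28071225 (plus strand) of GRCm38.p6. Their mean log2 ratios were 1.32, 0.52 and 1.19.

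Of 28 genes of fatty acid uptake, lipid droplets and triglyceride synthesis, 4 rose and 3 fell (25% called, against 14.9% of all genes). With median centring 14 rose and 1 fell. Beside Fabp3, Mogat2 and Cidea, the acyltransferase gene Agpat3 rose by 0.65. Slc27a2, a fatty acid transport protein and acyl-CoA synthetase, fell with a mean log2 ratio of -3.46, and Slc27a4 and Agpat2 fell by 0.69 and 0.83. Fabp5, the epidermal paralogue of Fabp3, had 0.48 and 0.21, and Plin2, the main droplet coat protein, 0.85 and 0.13; neither was called. The list median was 0.32 on replicate 1 and 0.17 on replicate 2.

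Glucose transporters rose while several glycolytic enzymes fell. Slc2a3 (GLUT3) reached Cy5 levels of 17.08 and 16.71 from Cy3 levels of 14.66 and 14.43, and Slc2a1 (GLUT1) 16.73 and 16.30 from 13.91 and 14.42. The transporter ratios were high on both arrays, with means of 2.35 ± 0.12 and 2.35 ± 0.32 (limma's adjusted p = 0.0138 and 0.03). Hk1, Ldhb and Tpi1 rose by 1.35, 1.21 and 0.66, and Hk2, Pkm, Eno1, Pfkl and Ldha fell by 0.78, 0.87, 0.90, 0.69 and 0.45; the lactate exporter Slc16a3 fell by 1.73. Of the 20 tested, 5 rose and 6 fell, but with median centring 11 rose and 1 fell. Hexokinase and lactate dehydrogenase thus each had 1 isoform that rose and 1 that fell under loess.

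Subunits of the respiratory chain and ATP synthase were mostly not called: 1 of 34 rose (Atp5b, 0.58) and 1 fell (Ndufb5, -0.58), with a median of -0.06; with median centring 20 rose and none fell, with a median of 0.71, and without doxycycline replicate 1, 3 fell. Of 33 mitochondrial ribosome and translation genes 4 (12.1%) fell and none rose by limma's test, beside 8.46% and 6.49% of all genes. Their median was -0.36, and 0.27 with median centring, where 6 rose. Without doxycycline replicates 1 and 2 the medians were -0.29 and -0.34. In the threonine, serine and one-carbon list of 20, Tdh, Mthfd1l and Mat2a fell and none rose; without doxycycline replicate 1, 5 fell and 1 rose, and with median centring 2 fell and 5 rose. Mat2a, which makes S-adenosylmethionine, had Cy3 levels of 16.26 and 16.23 and log2 ratios of -1.19 and -2.36. Gcat, the enzyme that acts after Tdh in threonine breakdown, had -0.26 and 0.12.

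Ribosome biogenesis and DNA replication genes were lower on both arrays under loess. Of 35 ribosome biogenesis genes 9 fell, with a median of -0.59 that was 0.06 with median centring, where 1 fell and 2 rose; 13 fell without doxycycline replicate 1 and 4 without replicate 2. Rrp1b had -1.12 and -1.10 and Polr1b, a subunit of RNA polymerase I, -0.96 and -0.87, while Ncl (nucleolin) had -0.12 and -2.55. Of 31 replication genes 10 fell, with a median of -0.50 that was 0.16 with median centring, where 4 were called higher; 11 fell without replicate 1 and 1 without replicate 2. Mcm2 and Mcm5 of the replicative helicase had means of -0.62 and -0.73, and Tk1 of -0.88.

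Mitosis and splicing genes had lower ratios on replicate 2 than on replicate 1, and few were called. Of 27 mitosis genes 1 fell (Cdc20, -0.78 and -0.93), and the list median was -0.06 on replicate 1 and -0.41 on replicate 2, with Cy5 levels lower on replicate 2 by a median of 0.83; 10 fell without replicate 1. Cenpe, a kinetochore motor, had 0.04 and -2.57 and Top2a -0.36 and -1.71. Of 29 splicing factors 1 fell (Srsf6) and 2 rose (Esrp1 and Esrp2), with medians of -0.20 and -0.89 on replicates 1 and 2. With median centring the medians of both lists turned positive, at 0.33 and 0.19, beside 0.19 for all genes. Then 6 mitosis and 4 splicing genes rose, beside 4886 of all 21025 genes. Srsf3 had -0.89 and -2.89.

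Among 22 G1 regulators 3 fell and 2 rose (22.7% called, against 14.9% of all genes), and with median centring 2 fell and 8 rose. Ccnd1 (cyclin D1) had -2.31 and -1.96 and its partner kinase Cdk6 -2.13 and -2.27. The inhibitors Cdkn1a (0.99 and 1.06) and Cdkn1b (0.54 and 0.48) rose, and Cdkn1c, which acts in trophoblast giant cells, had 1.09 and 0.52 and was not called. Ccne1 fell by 0.78 on the log2 scale. Members that were not called included uneven pairs, such as Ccne2 (1.11 and -0.72) and Ccnd2 (-1.31 and 0.02).

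Of 25 apoptosis regulators 6 rose and 2 fell; without doxycycline replicate 2 the numbers were 4 and 1, without replicate 1 they were 4 and 4, and with median centring 10 and 2. Bmf (1.66 and 2.37), Bik (1.19 and 1.51) and Bbc3 (0.89 and 0.95), all BH3-only genes that favour death, rose with the caspases Casp6 and Casp9 and with the survival gene Bcl2l2. Bok fell, with -2.57 and -2.08, as did Bcl2l11 at -0.70 and -0.68.

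Lysosome and autophagy genes leaned upward, with 10 rises and 1 fall (Ulk1) among 32 and a median of 0.58; with median centring 26 rose and none fell. Ctsb, a lysosomal protease, had 1.53 and 1.49, Hexa 1.33 and 1.48, Cd63 1.49 and 1.51, and Gabarapl1, which coats autophagosomes, 1.83 and 1.75. Each of these genes had nearly the same ratio on both arrays. Tfeb and Tfe3, the factors that drive such genes, had means of 0.17 and -0.41 and were not called. An E-box of the form CACGTG, which those factors read, was in 8 of the 25 promoters available for the list (32.0%) and in 7.68% of promoters of tested genes; none of these 8 genes was itself called.

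Among 20 genes of the mitochondrial and integrated stress responses 4 rose and none fell by limma's test: Cebpb, Ddit3 (CHOP; 1.99 and 2.77), Nupr1 and Fgf21; with median centring 13 rose. Atf4 had 0.44 and 0.95, and Asns, a common target of it, -0.07 and -0.06. Chaperones of the endoplasmic reticulum were mostly not called, with 1 fall (Creld2) among 26; with median centring 5 rose and none fell, and without doxycycline replicate 1, 6 fell. Heat shock genes had 2 rises, Bag3 and Cct2, and 2 falls, Hsph1 and Stip1, among 21, shares near the 6.49% and 8.46% of all genes; with median centring 12 rose and none fell, and without doxycycline replicates 1 and 2 the falls numbered 4 and 1.

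Of 23 Hippo pathway genes 4 rose (Amotl2, Ccn1, Lats2 and Tead2) and 1 fell (Amotl1), or 21.7% called against 14.9% of all genes. With median centring 8 rose and 1 fell. Amotl2, an angiomotin that binds YAP, had 1.65 and 1.47 and the YAP target Ccn1 1.26 and 1.26, whereas another target, Ccn2, had -1.83 and -0.57. Tead4, the partner of YAP in trophectoderm, had -0.19 and -0.41. Of 20 retinoid genes, 4 rose and 4 fell: Stra8 (1.43 and 1.31) and Rxra (1.07 and 0.72) were among those that rose, and Rbp4 (-2.28 and -1.89), Rarg, Stra6 and Aldh1a3 fell; without doxycycline replicates 1 and 2 the falls numbered 2 and 1. Actin and adhesion regulators had 5 rises and 3 falls among 28, with 3 and 1 without replicate 1 and 4 and 0 without replicate 2 and 13 and 1 with median centring; Myh9, a non-muscle myosin heavy chain, had 2.30 and 1.85 and Myl9 -1.47 and -1.34.

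Markers of other cells that the cultures could hold were called at shares near or above that of all genes. Called were 20% of feeder fibroblast, 21.7% of primitive endoderm and 15% of mesoderm genes, against 14.9% of all genes. Of 20 feeder fibroblast genes 4 fell (Thy1, Twist1, S100a4 and Vim) and none rose by limma's test, and with median centring 3 fell and 2 rose. The list median was -0.25 on replicate 1 and 0.04 on replicate 2. The 16 not called included Col1a1 (-1.02 and 0.14), Col1a2 (-0.82 and 0.03), Dcn (-0.21 and 0.19), Lum (0.14 and -0.04) and Pdgfrb (0.36 and 1.15). Col1a1 was brighter in the reference on replicate 1 (10.66) than on replicate 2 (8.42), and 15 of the 20 genes were no brighter in the reference on replicate 2, with a median difference of -0.43. Of 23 primitive endoderm genes 4 rose and 1 fell: the basement membrane genes Col4a1, Col4a2 and Lamb1 and the coactivator Cited1 rose, and Cubn fell; the falls numbered 2 without doxycycline replicate 1 and 3 without replicate 2, and with median centring 9 rose and 4 fell. Gata4 (0.06 and 0.09), Gata6 (0.37 and -0.04) and Sox17 (0.52 and 0.29), which define that lineage, were not called on the probes used. A second tested probe had 0.68 and 0.81 for Sox17 and -0.27 and 0.095 for Gata6. Of 20 mesoderm genes Gata1 and Tbx6 rose and Hbb-bh1 fell, and none was called without doxycycline replicate 2; T (-0.10 and -0.03) and Mixl1 (-0.12 and 0.08) were not called. Fewer cells of a type and less RNA per cell cannot be told apart in such samples, and the part of other cells in the results was not tested.

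**Figure D4:**
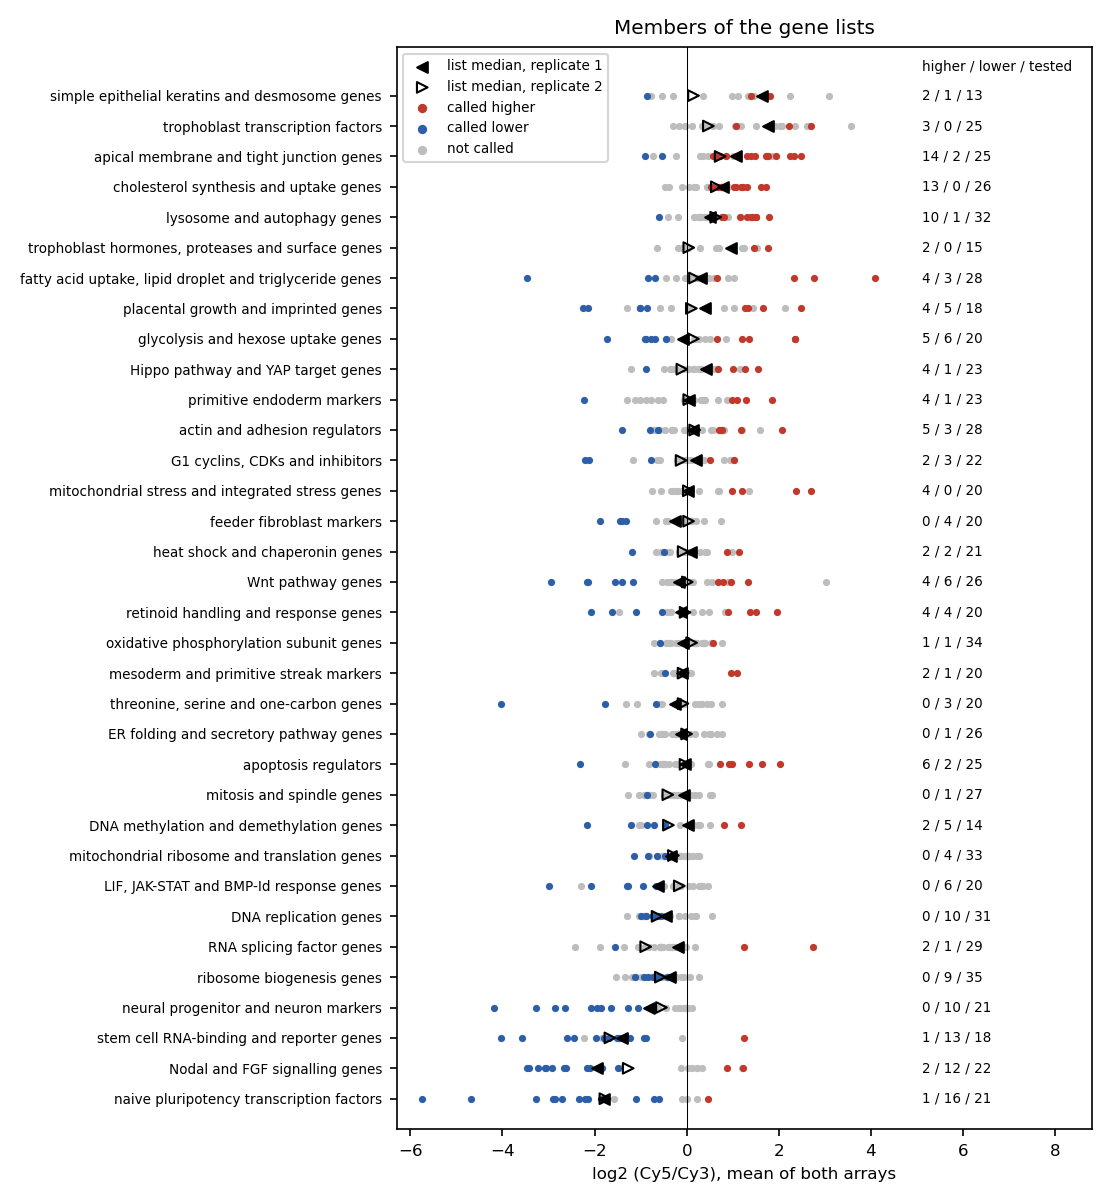
Mean log2 ratio of Cy5 over Cy3 (x axis) for each tested member of 34 gene lists (rows, ordered by median), coloured by call, with the list medians on replicate 1 (filled triangles) and replicate 2 (open triangles) and, at the right, the numbers called higher, called lower and tested. Naive pluripotency factors sit lowest, with 16 of 21 called lower, and the medians of keratin and trophoblast lists lie far apart on the 2 arrays.

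Changed genes with bright probes included ribosomal protein and ferritin genes; brightness also depends on the probe and does not rank transcripts by abundance. Rps14 had treated levels of 17.80 and 18.04 against a reference of 16.67 and 16.90. Rpl3 and Rpl13a rose by 1.09 and 1.13 on the log2 scale, and the ferritin light chain gene Ftl1 by 1.42, a value it may share with the near-identical copy Ftl2-ps (1.56). Among genes with bright reference signals, Odc1, the first enzyme of polyamine synthesis, fell by 1.21, Trim28, a corepressor, by 1.31, and Gpx1 by 1.03, while Gpx4, which protects membrane lipids, rose by 1.13.

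Some changes have only a bound because 1 channel was not well above background. Of the genes that fell, 33 were of this kind in the treated channel, with Mir9-3hg, the host of a miRNA precursor, at least 3.85-fold lower and Slc9a2 at least 3.08-fold lower (limma's adjusted p = 0.0166 and 0.0402). Their measured log2 ratios were -1.85 and -2.03, and -2.20 and -1.30. Of the genes that rose, 16 were of this kind in the reference, with N4bp2l1 at least 1.95-fold and Kcnj5 at least 1.76-fold higher (adjusted p = 0.0415 and 0.0195). Bounds divide the bright channel's mean by the higher of the dim probe's level and the lowest level well above background on each array. They apply to the mean of both arrays and leave out its spread, and for Mir9-3hg the bound is the measured mean log2 ratio of -1.94. Single arrays can lie below them, as Slc9a2 did on replicate 2 (-1.30) and N4bp2l1 on replicate 1 (0.68).

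Called falls grew more frequent as the reference got brighter, while called rises peaked below the brightest genes. The reference level is also the denominator of the ratio, so grouping by it favours falls among bright genes. Genes near the floor have little room to fall. The trend cannot be told apart from these effects of the grouping. In the dimmest 4197 genes by reference level 1.91% rose and 0.643% fell, and in the brightest 4197 genes 8.08% rose and 13.8% fell. In the 4197 genes next below the brightest, 9.65% rose and 12.5% fell. For called genes with other tested probes, 87.2% of 873 other probes of genes that rose and 85.2% of 748 of genes that fell had the same sign as the probe used. Their sizes were less alike, with Pearson r between the log2 ratios of 0.38 for genes that rose and 0.46 for genes that fell.

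The replicates differed by more than 2 on the log2 scale in 226 genes, and in 221 of them the ratio was lower on replicate 2. The treated channel moved more than the reference in 192 of the 226. Rlim, an X-linked ubiquitin ligase, had log2 ratios of 1.60 and -1.78, with Cy5 levels of 14.94 and 11.62 and nearly equal Cy3 levels of 13.33 and 13.40. It was called higher without doxycycline replicate 2 and lower without replicate 1. Kcnq1ot1, a long nuclear RNA, had Cy5 levels of 11.28 and 7.65, and Oip5os1, another non-coding RNA, 11.68 and 8.19. These genes were bright on replicate 1 and dim on replicate 2 in the treated channel only.

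Doxycycline replicate 2 was also lower than the TCP arrays in most of these genes. Of the 221 genes, 183 had a Cy5 level on doxycycline replicate 2 below all 3 other treated channels (82.8%, against 20.1% of all genes), which the choice of these genes by their low ratio there favours, and the median Cy5 level was 9.17 there, against 11.38 on doxycycline replicate 1 and 10.67 and 10.09 on the TCP arrays. Ddx3x, an RNA helicase, had 11.88 there and 14.63, 13.93 and 13.09 on the others. Ipo7, an importin, had the largest gap of any named gene, with log2 ratios of 1.76 and -2.63. Its Cy3 level was 14.13 on doxycycline replicate 2 and 11.46 to 11.82 on the other 3 arrays. Its Cy5 level was 11.50 on doxycycline replicate 2 and 11.45 on TCP replicate 2, against 13.22 and 12.83 on the replicate 1 arrays. Only the Cy3 level of Ipo7 thus set doxycycline replicate 2 apart. In the other direction, Cyp2s1 had -3.78 and -1.67, Tgfbi -0.88 and 1.17 and Notch1 -0.49 and 1.30.

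**Figure D5:**
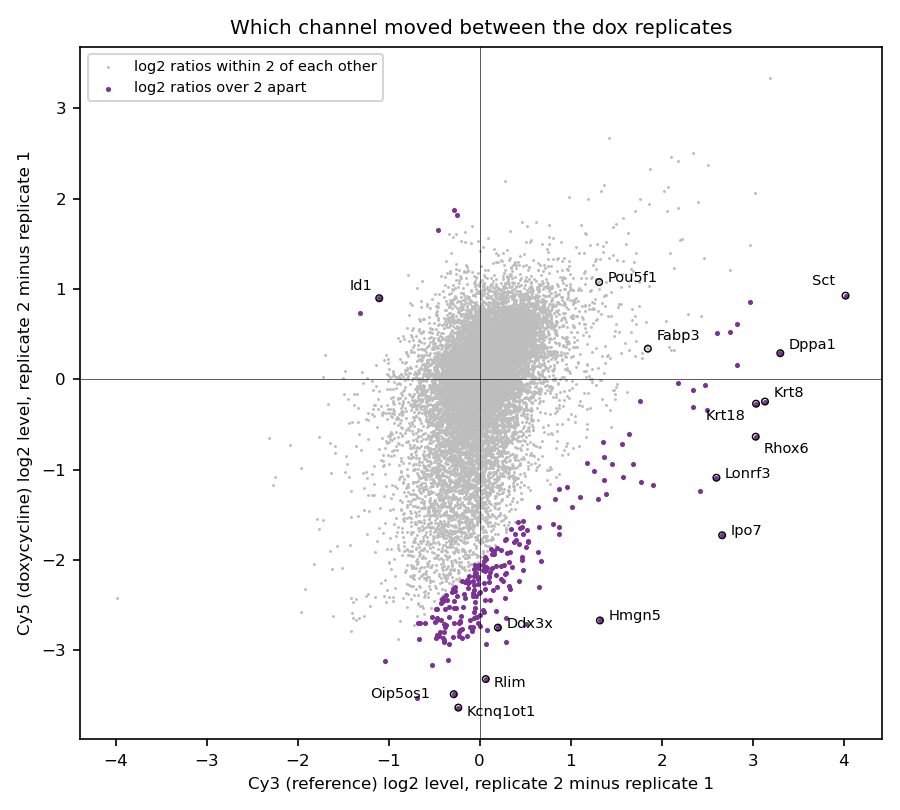
Change in Cy3 (reference, x axis) and Cy5 (doxycycline, y axis) log2 level from replicate 1 to replicate 2, 1 point per gene, with the 226 genes whose log2 ratios are over 2 apart in purple. Most purple points lie at the bottom, with lower Cy5 on replicate 2 (Rlim, Kcnq1ot1, Oip5os1), and a smaller set lies at the right, with brighter Cy3 (Krt8, Krt18, Sct, Dppa1).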

How the data were processed

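Spot and background signals are linear intensities that the authors deposited as scanned, with Agilent Feature Extraction 10.1.1.1 and mm7 probe annotation per the file headers. The authors' deposited log10 ratios (Cy5 over Cy3) matched the series table within 0.005, which settles scale and direction; column medians were 0, 0.0111, 0 and 0. No source used here records other upstream steps.

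Mean signals were corrected with limma 3.58.1 (R 4.3.3; normexp, offset 50) on median local backgrounds, those over 2 times the channel median being replaced by it. Loess within arrays gave log2 ratios; levels are after Aquantile. Of 45018 spots, 1639 controls had weight 0, and outlier spots (176 and 147 on doxycycline replicates 1 and 2) were missing, so 40 genes rest on 1 doxycycline array. The brightest of a gene's 30505 tested probes stood for it; 22951 of 41174 probes were named by accession, 6659 by symbol, 3109 by synonym and 8455 from the files. limma fitted group means over 4 arrays (2 residual and 1.79 prior degrees of freedom), with Benjamini-Hochberg adjustment; testing the ratio against 0 counts the reference as 1 control and leaves out its own spread. The number of arrays limits the precision.

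Named genes are Pou5f1, Nr0b1, Fabp3, the 25 largest rises and falls among called named genes, 10 bounds, 15 largest differences between replicates and 10 brightest each way, and 6 members of each list by adjusted p; other genes named, among them list members, were chosen after their values were seen. Members and lists were chosen with earlier results of these data known. The test was checked on simulated data. Alternatives are given with the closing remarks. Some genes that the rule names are not reported here.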

Additional observations from a re-analysis of the deposited data

How the results depend on the processing

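Main counts were 1364 genes higher and 1778 lower (limma, adjusted p under 0.05). With local backgrounds as read, no gene was called either way (1807 with unadjusted p under 0.05); the brightest local background on doxycycline replicate 1 was then 12800 times the Cy5 median. With the doxycycline arrays only, or with scan day as a block, which uses up the second TCP array, the counts were 0 and 0 (5095 with unadjusted p under 0.05). Leaving out 1 array gave 0 to 1373 genes higher and 0 to 2750 lower. Median centring gave 4886 higher and 1136 lower; scanner log ratios gave 1667 and 1668. The other settings run, apart from the replicate block, kept both counts within 1.5 times. Replicate numbers are shared with the TCP arrays, but with only 2 pairs (deviations correlated at 0.473) pairing is not established; the replicate block gave 2147 higher and 2735 lower, kept 3097 calls and called 15 trophoblast transcription factors and 8 keratin and desmosome genes higher. A slide block could not be fitted. Replicate correlation was 0.663 and became 0.657 with scanner log ratios, 0.677 with median centring and 0.656 with no filter on dim probes. Of 219 named called genes none kept its call in all settings, since 5 of them called no gene; 202 kept it with scanner ratios and 176 with median centring, where 9 reversed: Bop1 0.0145, Lig1 0.18, Mcm2 0.0551, Mcm5 0.0387, Mrpl11 0.0924, Mrpl12 0.27, Nhp2 0.14, Stip1 0.16 and Uhrf1 0.0027. Rlim, not called in the main comparison, had -1.78 without doxycycline replicate 1 and 1.61 without replicate 2. The cause of these changes was not tested.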
